A study of Mus musculus with 8 samples.

Results

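Smooth muscle of the airways and blood vessels contracts through a set of proteins that few other lung cells make in quantity, and transcripts of 9 genes of this apparatus were followed in whole mouse lung after ozone or filtered air. The genes were Acta2, Tagln, Myh11, Cnn1, Actg2, Mylk, Smtn, Tpm1 and Tpm2, taken as every probe set of the array whose annotation names 1 of them alone. They held 10 probe sets, 2 of them for Tpm2, out of 12422 probe sets and 8251 named genes. A further gene of the set, Cald1, was not analysed here. The 4 combinations of substrain and exposure were each read on 2 oligonucleotide arrays: C3H/HeOuJ mice in ozone for 72 h, C3H/HeOuJ mice in filtered air for 72 h, C3H/HeJ mice in ozone and C3H/HeJ mice in filtered air, the last pair with no duration in the labels. The substrains differ in Tlr4, which encodes the receptor for endotoxin: C3H/HeJ carries a point mutation that blunts it, and C3H/HeOuJ does not. The labels give no ozone concentration, age or sex, and they do not say whether the arrays of a group, named 1a and 1b, came from separate animals, so the p-values rest on a spread between arrays that may be technical in part or whole.

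In smooth muscle, calcium and calmodulin switch on myosin light chain kinase, the product of Mylk, which phosphorylates the light chain of smooth muscle myosin and so lets its heavy chain, the product of Myh11, pull on filaments of the alpha and gamma actins encoded by Acta2 and Actg2. Tropomyosins (Tpm1 and Tpm2), calponin (Cnn1), transgelin (Tagln) and smoothelin (Smtn) lie along these filaments. Many genes of the set are switched on by serum response factor, SRF, which binds a short sequence called the CArG box and works with the coactivators myocardin and MRTF. In the lung the protein of Acta2 also marks myofibroblasts, and Mylk, Tpm1 and Tpm2 are used by cells other than smooth muscle, endothelium and striated muscle among them.

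The RefSeq windows from 250 bases before to 50 bases after the listed start were available for 6 of the 9 genes on GRCm38.p6. They are shown for Acta2, the usual marker of smooth muscle, and for Tpm1, Mylk and Cnn1, the genes with the widest separation of groups below; capitals mark CArG boxes with at most 1 mismatch (CC, then 6 bases that are each A or T, then GG, a palindrome that reads alike on both strands).
Acta2, chr19:34255324-34255623, minus strand: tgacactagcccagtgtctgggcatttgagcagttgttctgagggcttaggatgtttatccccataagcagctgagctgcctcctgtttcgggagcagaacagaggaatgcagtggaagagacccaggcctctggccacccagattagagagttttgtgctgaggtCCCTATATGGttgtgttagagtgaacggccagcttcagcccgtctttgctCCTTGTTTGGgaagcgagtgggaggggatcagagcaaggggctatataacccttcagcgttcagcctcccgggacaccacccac
Tpm1, chr9:67049164-67049463, minus strand: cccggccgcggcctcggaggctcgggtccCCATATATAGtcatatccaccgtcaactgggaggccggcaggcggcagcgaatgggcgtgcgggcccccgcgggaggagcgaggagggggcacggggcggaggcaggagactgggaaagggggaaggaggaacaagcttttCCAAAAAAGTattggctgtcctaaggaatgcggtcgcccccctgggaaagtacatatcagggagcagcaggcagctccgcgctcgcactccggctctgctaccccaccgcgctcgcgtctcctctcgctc
Cnn1, chr9:22099003-22099302, plus strand: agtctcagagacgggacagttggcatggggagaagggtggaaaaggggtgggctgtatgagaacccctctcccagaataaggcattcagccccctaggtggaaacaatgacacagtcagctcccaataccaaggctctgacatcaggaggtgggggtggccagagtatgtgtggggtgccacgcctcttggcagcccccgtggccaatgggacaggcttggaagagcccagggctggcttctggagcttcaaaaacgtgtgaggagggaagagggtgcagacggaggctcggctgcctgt
Mylk, chr16:34784700-34784999, plus strand: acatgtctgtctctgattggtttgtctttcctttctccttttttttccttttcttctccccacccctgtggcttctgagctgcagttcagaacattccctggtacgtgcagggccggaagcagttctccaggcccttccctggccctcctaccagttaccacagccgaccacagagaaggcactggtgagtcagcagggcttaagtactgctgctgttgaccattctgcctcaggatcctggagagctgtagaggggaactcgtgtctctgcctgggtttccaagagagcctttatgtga
The Acta2 window held 2 such boxes, which began 84 and 34 bases before the listed start, and the Tpm1 window held 2, which began 221 and 80 bases before it. Each of the 4 differed from the consensus by 1 base. The windows of Cnn1, Mylk, Smtn and Tpm2 held none with at most 1 mismatch. The Mylk and Tpm1 windows lay inside the spans of their genes (chr16:34745199-35002436 and chr9:67022590-67049672), so the sequence before those spans was not read. Among all 32851 windows of this length, 21.1% held a box with at most 1 mismatch and 1.63% an exact one, so the letters describe the windows only.

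All 10 probe sets gave signal. Intensities are the deposited linear values, already scaled so that the trimmed mean of each array was about 800; low values were raised to 69.63, below which lay 20% of all values, and 9 of the 10 probe sets lay above it on all 8 arrays. The exception was the second probe set of Tpm2, above the floor on 6. Lung epithelial markers gave high signal on every array, with a summed intensity over 8 tested genes of 240600 to 248900 in HeOuJ ozone, 154500 to 193900 in HeOuJ air, 158400 to 190200 in HeJ ozone and 175800 to 216200 in HeJ air. The 2 HeOuJ ozone arrays stood apart from the rest in measures of the arrays themselves. Signal of the actin control set near the transcript's 5' end, divided by that of the set near its 3' end, gave 0.766 and 0.756, against 0.432 to 0.603 on the other 6 arrays, and on the first principal component they scored 53.2 and 19.3, while the others scored at most 0.54. Since whole lung was measured, fewer smooth muscle cells and less RNA per cell cannot be told apart in any of these values.

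No member reached an adjusted p of 0.05 in limma in any of 7 comparisons: the ozone effect in each substrain, the difference of these 2 effects, their mean, and HeOuJ against HeJ in air, in ozone and averaged over exposures. The differences that came nearest were a higher Tpm1 and a lower Mylk in HeOuJ ozone lungs than in HeJ ozone lungs. The marker genes Acta2, Tagln, Myh11 and Cnn1 had lower group means in ozone than in air in both substrains, with log2 differences from -0.54 to -0.06, none past the threshold.

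**Figure D1:**
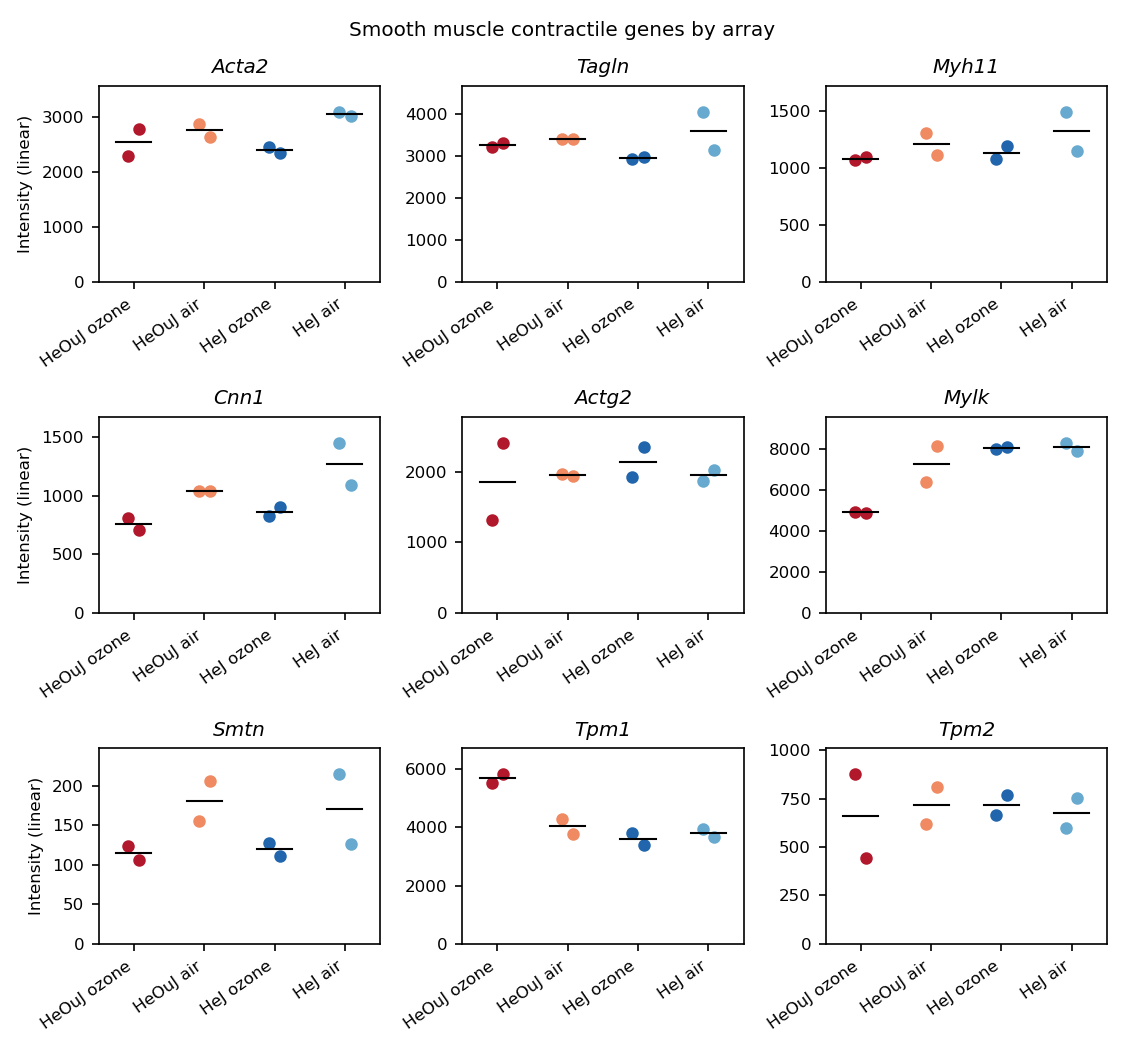
Intensity (linear scale, axis from 0) of 9 smooth muscle contractile genes, 1 probe set per gene, on each of 8 arrays; points are single arrays and the bar is the mean of the 2 arrays of a group. Tpm1 is highest and Mylk lowest in HeOuJ ozone, whereas Acta2 runs from 2289 to 3097 over all arrays.

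Neither of the 2 actins passed the threshold for ozone. In HeJ the mean of Acta2 was lower in ozone, whereas that of Actg2 had no clear direction (log2 difference 0.12, SE 0.26, 95% interval -0.46 to 0.70). Acta2, the alpha actin of vascular and airway smooth muscle, had intensities of 2289 and 2785 in HeOuJ ozone, 2872 and 2636 in HeOuJ air, 2445 and 2344 in HeJ ozone, and 3097 and 3015 in HeJ air. The ozone and air arrays overlapped in HeOuJ, and in HeJ both ozone arrays lay below both air arrays. The log2 difference of ozone against air was -0.12 in HeOuJ (SE 0.14, 95% interval -0.43 to 0.19, adjusted p 0.707 in limma) and -0.35 in HeJ (SE 0.14, 95% interval -0.66 to -0.04, adjusted p 1.0). The 2 effects differed by 0.23 (95% interval -0.21 to 0.67), so the intervals allow an equal effect in both substrains. Actg2, the gamma actin of visceral smooth muscle, had 1310 and 2415 in HeOuJ ozone, 1962 and 1943 in HeOuJ air, 1920 and 2345 in HeJ ozone, and 1872 and 2029 in HeJ air. The 2 HeOuJ ozone arrays were the lowest and the highest of all 8, so their mean of 1863 ± 781 (SD, n = 2) says little. Its probe set carries the maker's suffix for sets that match several members of a gene family, so other actins may contribute to its signal.

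Neither the myosin heavy chain nor the kinase that switches it on passed the threshold. Myh11, whose heavy chain is made almost only in smooth muscle, had 1065 and 1090 in HeOuJ ozone, 1301 and 1107 in HeOuJ air, 1076 and 1188 in HeJ ozone, and 1492 and 1144 in HeJ air. Apart from 2 air arrays, one of each substrain, every array lay between 1065 and 1188. The ozone effect was -0.16 in HeOuJ (95% interval -0.56 to 0.25) and -0.21 in HeJ (95% interval -0.62 to 0.20) on the log2 scale. Mylk, the myosin light chain kinase, had 4930 and 4882 in HeOuJ ozone, 6393 and 8112 in HeOuJ air, 7975 and 8083 in HeJ ozone, and 8295 and 7877 in HeJ air. The 2 HeOuJ ozone arrays agreed closely and were the lowest of the 8, and 1 HeOuJ air array lay between them and the rest. Against HeOuJ air the log2 difference was -0.55 (SE 0.14, 95% interval -0.88 to -0.22, adjusted p 0.134 in limma). Against HeJ ozone it was -0.71 (SE 0.14, 95% interval -1.04 to -0.38, adjusted p 0.0608). In HeJ the ozone effect was -0.01 (95% interval -0.34 to 0.32), and the difference of the 2 effects was -0.54 (SE 0.20, adjusted p 0.38).

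Of the tropomyosins, which wind along the actin filament, Tpm1 came nearest to the threshold of all members. Tpm1 had 5531 and 5848 in HeOuJ ozone, 4282 and 3787 in HeOuJ air, 3812 and 3387 in HeJ ozone, and 3941 and 3667 in HeJ air. Both HeOuJ ozone arrays lay above the other 6, whose values ran from 3387 to 4282 with no separation by substrain or exposure. The log2 difference was 0.50 against HeOuJ air (SE 0.13, 95% interval 0.20 to 0.79, adjusted p 0.134 in limma) and 0.66 against HeJ ozone (SE 0.13, 95% interval 0.37 to 0.96, adjusted p 0.0554). In HeJ the ozone effect of Tpm1 was -0.08 (95% interval -0.38 to 0.21), and the difference of the 2 effects was 0.58 (SE 0.18, adjusted p 0.304). Tpm2 had 880.3 and 445.2 in HeOuJ ozone, 621.2 and 810.1 in HeOuJ air, 665.2 and 769.1 in HeJ ozone, and 600.2 and 754 in HeJ air. Its 2 HeOuJ ozone arrays spanned the whole range of the 8, and no difference exceeded its standard error. The dimmer probe set of Tpm2 had 109 and 24.7 in HeOuJ ozone, the second of these below the floor, and its largest difference was that of the 2 ozone effects, -0.99 (SE 0.53, adjusted p 0.533).

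Calponin, transgelin and smoothelin, which bind the filaments and are used as markers of contractile smooth muscle, had lower mean levels in ozone in both substrains. Cnn1, the calponin, had 806.7 and 708.2 in HeOuJ ozone, 1044 and 1043 in HeOuJ air, 828.5 and 904.1 in HeJ ozone, and 1456 and 1092 in HeJ air. All 4 ozone arrays lay below all 4 air arrays, which was so for 1.22% of all probe sets tested (2.01% with ozone higher), and Cnn1 was alone among the 10 probe sets in this. The log2 difference was -0.47 in HeOuJ (SE 0.19, adjusted p 0.289 in limma), -0.54 in HeJ (SE 0.19, adjusted p 0.996) and -0.50 averaged over the substrains (SE 0.13, 95% interval -0.81 to -0.20, adjusted p 0.324). Tagln, which encodes transgelin, also called SM22 alpha, had 3208 and 3305 in HeOuJ ozone, 3399 and 3394 in HeOuJ air, 2926 and 2967 in HeJ ozone, and 4049 and 3139 in HeJ air. The ozone arrays lay below the air arrays within each substrain but by little in HeOuJ, where the log2 difference was -0.06 (95% interval -0.39 to 0.26), against -0.27 in HeJ (95% interval -0.60 to 0.05). Smtn, the smoothelin, was the dimmest member, with 123.1 and 106 in HeOuJ ozone, 155.6 and 205.6 in HeOuJ air, 127.5 and 111.4 in HeJ ozone, and 215.2 and 126.7 in HeJ air. Its standard error of 0.38 left the ozone effects of -0.65 in HeOuJ and -0.47 in HeJ within wide intervals, -1.52 to 0.22 and -1.34 to 0.40.

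**Figure D2:**
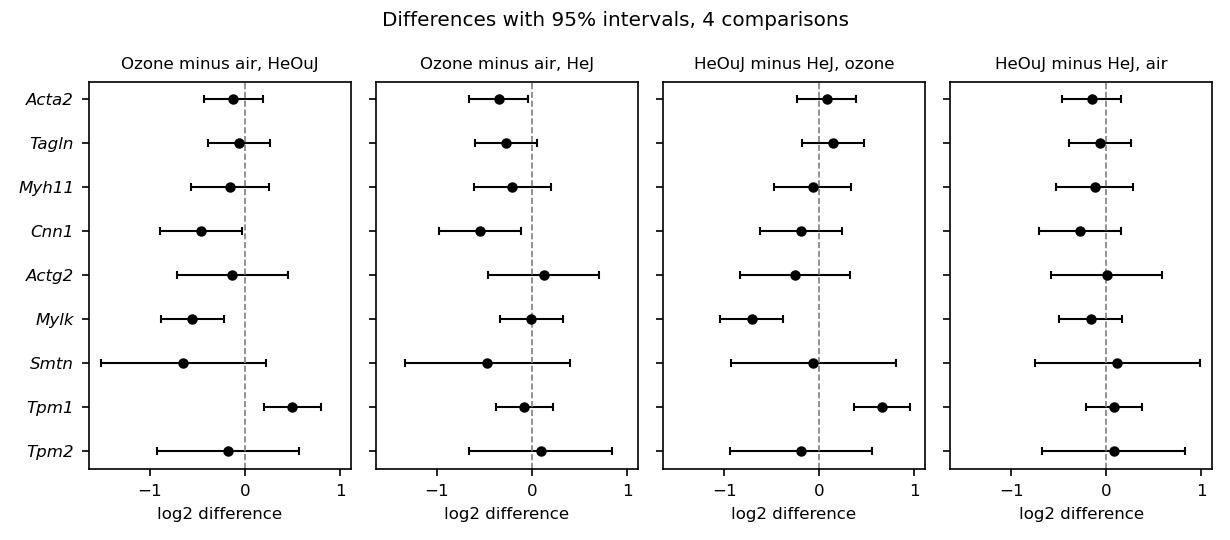
Log2 differences of 9 smooth muscle contractile genes with 95% intervals from limma, in 4 comparisons (8 arrays in 1 fit, 2 arrays a group); the dashed line is no difference. The intervals of Tpm1 and Mylk lie on opposite sides of 0 in both comparisons that use HeOuJ ozone. For ozone minus air, the interval of Cnn1 lies below 0 in both substrains and that of Acta2 in HeJ.

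Most members had lower values in ozone in both substrains, by a small amount, whereas other lists had medians that low in a single substrain at most. In HeOuJ, 8 of the 9 genes, each at its brightest probe set, were below their air level, with a median log2 difference of -0.16; over all 10953 probe sets tested, 47.3% were below 0 and the median was 0.02. In HeJ, 7 of the 9 were below, with a median of -0.21, where 48.8% of all probe sets were below 0 and their median was 0.01. The HeJ median was -0.08 without HeJ air 1a and -0.37 without HeJ air 1b, and the HeOuJ median was -0.27 without HeOuJ ozone 1b and -0.38 with the 5'/3' ratio of the controls as a covariate. In HeOuJ the medians of pericyte (-0.28), endothelial (-0.21) and fibroblast markers (-0.20) lay further below 0 than that of the members. The same lists had medians of 0.135, -0.039 and 0.005 in HeJ. In HeJ the medians of macrophage (-0.21) and striated muscle markers (-0.17) lay near that of the members, but in HeOuJ they were -0.018 and 0.117. Epithelial markers had medians of 0.20 in HeOuJ and -0.15 in HeJ. The members' mean log2 level, each gene centred on its own mean over the 8 arrays, was -0.13 and -0.14 on the HeOuJ ozone arrays, 0.04 and 0.10 on the HeOuJ air arrays, -0.09 and -0.04 on the HeJ ozone arrays, and 0.22 and 0.03 on the HeJ air arrays. All 4 ozone arrays thus lay below 0 and all 4 air arrays above it, and HeJ air 1a stood highest. These directions and the lists behind them were chosen with earlier results of the same arrays known.

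The counts of members past a threshold were read against those of all probe sets. In HeOuJ, 0 of the 10 probe sets passed for ozone against air, where 0.456% of all tested did, and 3 had an unadjusted p under 0.05 (Cnn1, Mylk and Tpm1), where 15.5% of all did. Arrays did not overlap for 6 of the 10 with ozone lower, against 19.5% of all, and for 1 with ozone higher, against 22.3%. The 6 were the sets of Tagln, Myh11, Cnn1, Mylk and Smtn and the dimmer set of Tpm2. That Tpm2 set had 109 and 24.7, the second below the floor, against 109.1 and 132.4 in HeOuJ air. With 1 probe set per gene, the brightest, it was 5 of the 9 genes. In HeJ, 0 passed, as did 0% of all, 2 had an unadjusted p under 0.05 (Acta2 and Cnn1), against 4.35% of all, and 3 did not overlap with ozone lower, against 16%, and 0 with ozone higher, against 18.4%. None passed for the mean ozone effect, where 0.0183% of all did, with 3 at an unadjusted p under 0.05 (Acta2, Cnn1 and Mylk) against 9.25% of all. The difference of the 2 ozone effects gave 0 calls, as for 0% of all probe sets, and 2 members at an unadjusted p under 0.05 (Mylk and Tpm1) against 11.4% of all. With so few probe sets, none of these counts is a result about the members as a set.

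No difference between HeOuJ and HeJ lungs was called in filtered air. In limma 0 of the 10 probe sets passed, against 0.0456% of all, and 0 had an unadjusted p under 0.05, against 5.71% of all. The 9 genes had a median log2 difference of -0.07 (0.01 over all probe sets tested), and the largest, that of Cnn1, was -0.27 (95% interval -0.70 to 0.16). Arrays did not overlap for 2 probe sets with HeOuJ lower (Acta2 and Cnn1), against 15.5% of all, and for 1 with HeOuJ higher (the dimmer set of Tpm2), against 17.1%. In ozone, HeOuJ against HeJ gave 0 calls among the 10, where 0.977% of all passed, and 2 at an unadjusted p under 0.05, Tpm1 and Mylk, against 18% of all. There 2 did not overlap with HeOuJ higher (Tagln and Tpm1), against 24.4% of all, and 2 with HeOuJ lower (Cnn1 and Mylk), against 21.6%. Averaged over the exposures 0 passed, where 0.155% of all did, and 2 had an unadjusted p under 0.05, Mylk at -0.44 (SE 0.10) and Tpm1 at 0.37 (SE 0.09), against 13% of all; none separated all 4 HeOuJ from all 4 HeJ arrays, as 2.7% of all did with HeOuJ higher and 2% with it lower. All comparisons with HeOuJ ozone share the same 2 arrays, so the values of Tpm1 and Mylk in them are not separate results.

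The 2 HeOuJ ozone arrays, which had the highest 5'/3' actin ratios, also had the highest Tpm1 and the lowest Mylk. Over the other 6 arrays neither gene ran strictly in the order of the actin ratio. At an actin ratio of 0.530 Tpm1 was 3387 and at 0.432 it was 3667. Mylk was 8112 at 0.603 and 7877 at 0.432. However, HeOuJ air 1a, at 0.598, had the highest Tpm1 (4282) and the lowest Mylk (6393) of these 6. Its 5'/3' ratio of the Gapdh control, 1.057, was also the highest of the 6. With the mean log2 5'/3' ratio of the actin and Gapdh controls as a covariate, the ozone effect in HeOuJ was 0.27 for Tpm1 (SE 0.27, adjusted p 0.949 in limma) and -0.38 for Mylk (SE 0.31, adjusted p 0.927), and against HeJ ozone it was 0.30 for Tpm1 (SE 0.39) and -0.44 for Mylk (SE 0.45). The same covariate moved Cnn1 away from 0, to -0.95 for ozone in HeOuJ (SE 0.37, adjusted p 0.913), -0.63 for ozone in HeJ (SE 0.18, adjusted p 0.82) and -0.95 for HeOuJ against HeJ in ozone (SE 0.55, adjusted p 0.983). For Acta2 the ozone effects were -0.13 in HeOuJ (SE 0.30) and -0.35 in HeJ (SE 0.15), close to those without it. The actin ratios of the 2 HeOuJ ozone arrays did not overlap those of the other 6. In differences that use HeOuJ ozone, group and ratio therefore cannot be told apart. The part of RNA quality in these differences was not tested further.

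**Figure D3:**
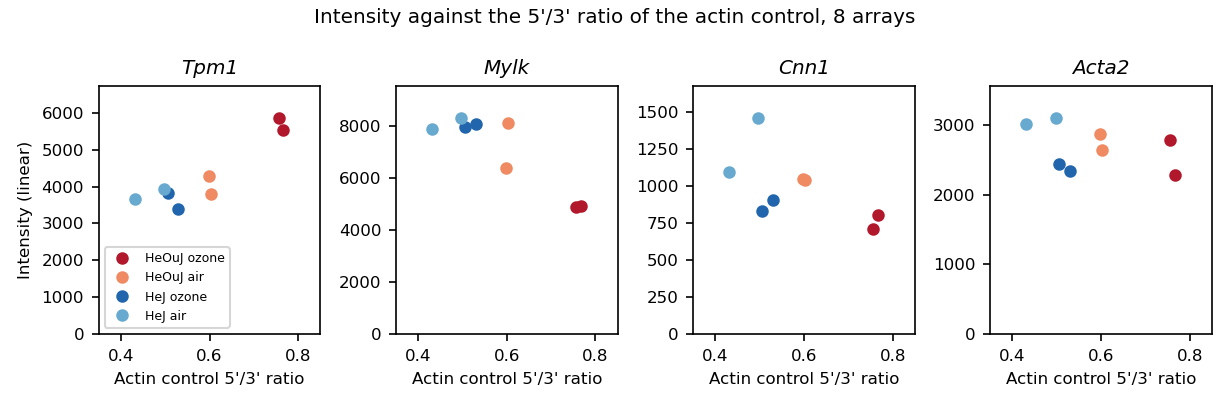
Intensity (linear scale, axis from 0) of Tpm1, Mylk, Cnn1 and Acta2 against the 5'/3' signal ratio of the actin controls (no unit) on each of 8 arrays, coloured by group. The 2 HeOuJ ozone arrays, at ratios of 0.756 and 0.766, hold the highest Tpm1 and the lowest Mylk values, whereas Cnn1 is also low on the HeJ ozone arrays.

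Summed signal set the 2 HeOuJ ozone arrays apart from the other 6 for the endothelial, fibroblast, striated muscle, mesothelial and epithelial markers, and not for those of pericytes or macrophages. The epithelial sum included the bright Sftpc, with 100600 and 77500 in HeOuJ ozone and 39540 to 56980 on the other arrays. By gene, 5 of the 8 epithelial markers were higher against HeOuJ air and 4 of the 8 against HeJ ozone. Markers of endothelium, whose cells also make Mylk, had a summed intensity over 10 of 10 genes of 55680 to 59940 in HeOuJ ozone, against 60560 to 67220 in HeOuJ air, 62680 to 64330 in HeJ ozone and 62500 to 68760 in HeJ air. None of the 10 passed for ozone in HeOuJ, and Emcn, an endothelial sialomucin, had the smallest p there, with -0.67 (SE 0.14, adjusted p 0.0762 in limma). Fibroblast markers, 12 of 12 tested, summed to 28740 to 29240 in HeOuJ ozone, against 32870 to 36520 in HeOuJ air, 32260 to 33730 in HeJ ozone and 31120 to 33910 in HeJ air. By gene they were split, with 7 lower and 5 higher against HeOuJ air and likewise 7 lower and 5 higher against HeJ ozone. Markers of cardiac and skeletal muscle, which use Tpm1 heavily, summed over 20 of 22 genes to 37190 to 38040 in HeOuJ ozone, 33880 to 35320 in HeOuJ air, 29620 to 30000 in HeJ ozone and 33770 to 36770 in HeJ air, with Tnni2 below the floor on every array. Among them Myh6, the alpha myosin heavy chain of the heart, passed for HeOuJ against HeJ in ozone, with 2930 and 2763 in HeOuJ ozone and 1568 and 1603 in HeJ ozone, a log2 difference of 0.84 (SE 0.15, adjusted p 0.0494); leaving out arrays in turn kept this call in 1 of 8 fits. Pericyte markers, 6 of 8 tested, summed to 4233 to 5049 in HeOuJ ozone, 4306 to 6492 in HeOuJ air, 5809 to 5872 in HeJ ozone and 4981 to 5131 in HeJ air. Mesothelial markers, 4 of 5 tested, summed to 10310 to 12270 in HeOuJ ozone, 7621 to 7721 in HeOuJ air, 8166 to 8731 in HeJ ozone and 8288 to 9383 in HeJ air. That sum was mostly Krt19, a keratin that epithelium also makes, with 8408 and 9683 in HeOuJ ozone and 5075 to 6298 on the other arrays (0.77 against HeOuJ air, SE 0.15, adjusted p 0.0744); 2 of the 4 genes were higher against HeOuJ air and 1 of 4 against HeJ ozone. Macrophage markers, 8 of 9 tested with Marco below the floor on every array, summed to 48680 to 54690 in HeOuJ ozone, 41600 to 51650 in HeOuJ air, 35390 to 41650 in HeJ ozone and 39700 to 44500 in HeJ air. Among them Chil3, a secreted chitinase-like protein, passed as lower in HeOuJ ozone than in HeOuJ air (-1.19, SE 0.18, adjusted p 0.0464 in limma), and Cd68, a lysosomal protein, as higher in HeOuJ ozone than in HeJ ozone (1.29, SE 0.18, adjusted p 0.0329) and averaged over the exposures (0.94, SE 0.12, adjusted p 0.0322). With 1 array left out, Chil3 passed in 0 of 8 fits, and Cd68 in 2 of 8 in ozone and 0 of 8 for the average. The part of these cells in the members' values was not tested.

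Among other genes of the contractile and cytoskeletal machinery, Csrp1 alone passed in any comparison. Of 29 such genes 25 were tested on 37 probe sets, and none passed for ozone in either substrain (medians 0.05 in HeOuJ and -0.01 in HeJ). For HeOuJ against HeJ in ozone, 2 probe sets passed, both higher and both of Csrp1, a LIM protein of smooth muscle and other cells that binds actinin and zyxin. One of them had 7491 and 5864 in HeOuJ ozone and 3553 and 3437 in HeJ ozone, a log2 difference of 0.92 (SE 0.15, adjusted p 0.0454 in limma). The other had 6937 and 6519 against 4122 and 3712, a difference of 0.78 (SE 0.13, adjusted p 0.046). Neither set passed in any of the 8 fits that left out 1 array, although each kept its sign, with differences of at least 0.706 in these fits. Over all alternatives the lowest difference was 0.747 for the first set and 0.276 for the second. Against HeOuJ air, with 4465 and 4971 for the first set and 4844 and 4524 for the second, the differences of 0.49 (SE 0.15, adjusted p 0.174) and 0.52 (SE 0.13, adjusted p 0.121) did not pass. In HeJ the transgelin relative Tagln2, at -0.36 (SE 0.17), and the LIM protein Pdlim7, at -0.65 (SE 0.35), had the smallest p-values of the list for ozone, Pdlim7 on 1 of its 3 probe sets, and their adjusted p-values in limma were 1.0.

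Regulators of smooth muscle tone, the receptors, channels and signalling proteins that set how hard the muscle contracts, showed no call. Of 33 genes 15 were tested on 19 probe sets, and none passed in any of the 7 comparisons; Kcnmb1, the channel subunit typical of smooth muscle, lay below the floor on every array. The median was -0.17 for ozone in HeOuJ (10 of 15 lower) and 0.13 in HeJ (12 of 15 higher). Rock1, the kinase that restrains the myosin phosphatase, had 435.3 and 414.2 in HeOuJ ozone against 1155 and 746.7 in HeOuJ air, a log2 difference of -1.13 (SE 0.24, adjusted p 0.0838 in limma). Both HeOuJ ozone arrays lay below the other 6, HeJ lungs having 782.9 and 804.1 in ozone and 689.9 and 738.3 in air, but a second probe set of Rock1 gave 0.17 (SE 0.24). Rgs5, a signalling inhibitor of pericytes and vascular muscle, gave opposite differences on its 2 probe sets, -1.47 (SE 0.38) and 0.88 (SE 0.35), neither past the threshold.

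Of 26 transcription factors and signals of the smooth muscle programme, 20 were tested on 28 probe sets, and 1 passed, lower, for ozone in HeOuJ. That was Klf4, a factor known to repress smooth muscle genes, with 1027 and 761.7 in HeOuJ ozone and 2665 and 3547 in HeOuJ air, a log2 difference of -1.80 (SE 0.28, adjusted p 0.0464 in limma). Leaving out arrays in turn kept this call in 2 of 8 fits, those without an HeJ air array. In HeJ, where the list had no call, Klf4 had 2138 and 2228 in ozone and 1680 and 3009 in air, which overlapped. The medians of the list were -0.11 in HeOuJ (15 of 20 lower) and -0.01 in HeJ (11 of 20 lower).

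**Figure D4:**
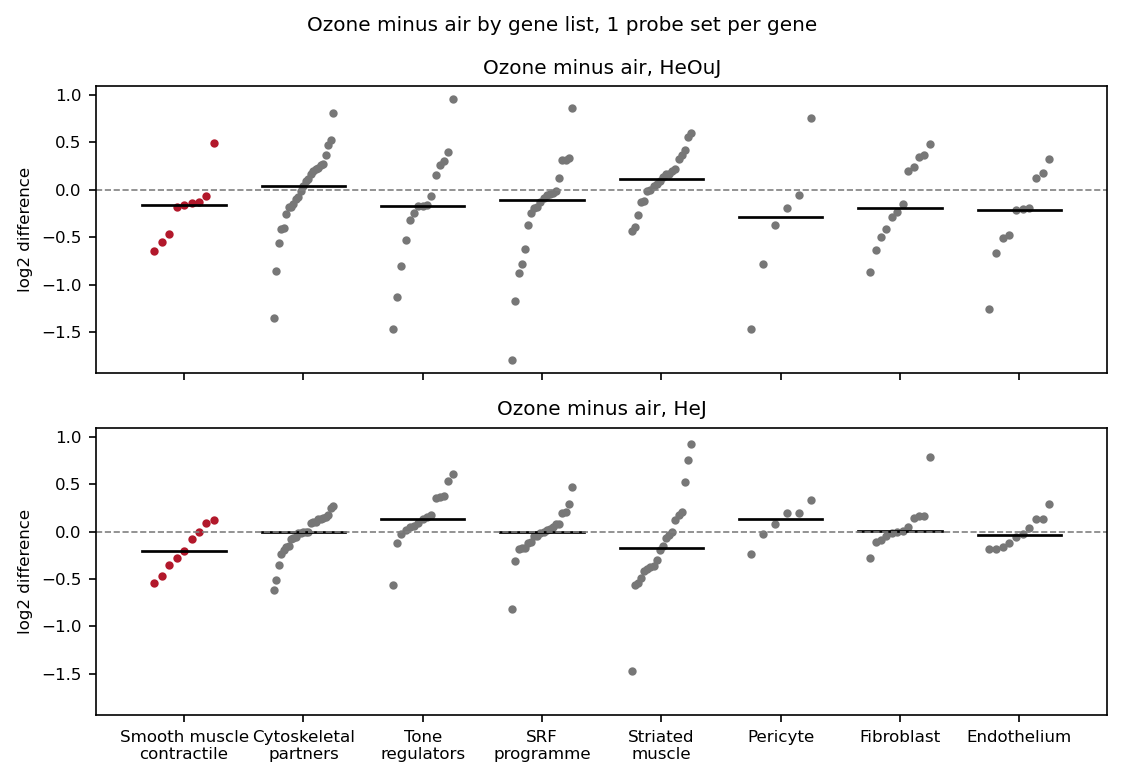
Log2 difference of ozone against air in HeOuJ (top) and HeJ (bottom) for each tested gene of 8 lists, 1 probe set per gene, sorted within a list; the black bar is the list's median and the dashed line no difference. The smooth muscle contractile genes (red) have medians of -0.16 in HeOuJ and -0.21 in HeJ, with Tpm1 as the single gene above 0 in HeOuJ.

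The SD of log2 intensity over all arrays was 0.15 to 0.17 for Tagln, Acta2 and Myh11 and 0.27 to 0.39 for Actg2, Tpm1, Tpm2, Cnn1, Mylk and Smtn. Within groups it was smallest for Tpm1 (0.10), Acta2 (0.11) and Mylk (0.12) and largest for Tpm2 (0.40). As a description over 8 arrays of 4 groups that share their scaling, Cnn1 followed the mean of the other 8 genes most closely (Pearson r 0.94), Tpm1 ran against it (-0.68), and the other 7 lay between -0.22 and 0.77. The named probe sets outside the set whose profile over the 8 arrays was most like the members' mean were those of Son, Sstr2, Fmc1, Sptan1 and Cln3, with Pearson r from 0.89 to 0.93 among 9675 candidates; none of the 5 passed for ozone in either substrain. Cln3 lay below the floor on 5 of the 8 arrays and Sstr2 on both HeOuJ ozone arrays, so their likeness rests in part on values set to the floor. Son, the nearest, had 834.5 and 875.5 in HeOuJ ozone, 982.1 and 1029 in HeOuJ air, 862.1 and 949.2 in HeJ ozone, and 1160 and 1090 in HeJ air.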

How the data were processed

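Lung RNA of 4 groups, 2 arrays each, was measured as 1 intensity per probe set. The deposited values are linear intensities that the authors had already scaled (2% trimmed mean of each array 800.39 to 800.41, tested on the values); the software and the hybridisation protocol are not given in the sources used here, and precision is limited by the number of arrays. Of 12488 probe sets, 66 controls were set aside. Values were raised to a floor of 69.63 (20th percentile), log2 was taken, and the 10953 probe sets exceeding it on 2 or more arrays were tested. Names came from an array annotation of 2016 (1 gene for 10833 probe sets, several for 396, none for 1193). All 8 arrays entered limma 3.58.1 under R 4.3.3 (lmFit on 4 group means, contrasts.fit, eBayes with an intensity trend; 4 residual and 4.54 prior degrees of freedom), with Benjamini-Hochberg adjustment over all probe sets tested and a threshold of 0.05. Intervals are 95% and use the moderated standard errors. The model was tested on simulated data. Lists were described by counts and medians over the brightest probe set of each gene. Every member was named; of the other lists the genes that passed were named (up to 3 a list and comparison), and those with the 2 smallest p-values for ozone could be; the 5 genes most like the members' mean profile were also named. The members, lists and most alternatives were chosen with earlier results of these data known. Sequences are from RefSeq, GRCm38.p6. Figures were drawn in Python 3.11.15 (matplotlib 3.10.9, pandas 2.3.3).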

Additional observations from a re-analysis of the deposited data

How the results depend on the processing

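The count of members past the threshold stayed at 0 under every alternative run (normalisation, the floor and filter on dim probe sets, the variance model, the groups fitted together, a replicate block, a 5'/3' covariate, array weights and each array left out), except in HeOuJ against HeJ in ozone. There it was 2 with no floor beyond an intensity of 1 and 2 among probe sets above the floor on all 8 arrays (Tpm1 and Mylk, adjusted p in limma from 0.0375 to 0.0495), and 1 with the replicate block (Tpm1, 0.0492; the labels give no pairing, and the 1a minus 1b differences of the 6 pairs of groups correlated at -0.01 to 0.138, 3 of them over 0.1, so the letters were not taken as pairs); the adjusted p of Tpm1 ran up to 0.983 over the alternatives. The members' median in that comparison was -0.15 with quantile normalisation. Under the 5'/3' covariate the medians were -0.38 for ozone in HeOuJ, -0.30 for ozone in HeJ, -0.13 for the difference of these effects, -0.15 for HeOuJ against HeJ in air, -0.40 in ozone and -0.24 averaged. Leaving out 1 array at a time gave medians of -0.27 to -0.13 for ozone in HeOuJ, -0.371 to -0.076 for ozone in HeJ, -0.13 to 0.25 for the difference of effects, and -0.204 to -0.006 for the substrains in air. Single values larger than their standard error changed sign in 3 cases: Tagln under the covariate, to -0.07 in the difference of effects and -0.40 in HeOuJ against HeJ in ozone, and Mylk without HeOuJ air 1a, to 0.005 in HeOuJ against HeJ in air (-0.338 without HeOuJ air 1b). The cause of these changes was not tested. Calls in the other lists were less firm: over the alternatives the adjusted p in limma ran from 0.0192 to 0.915 for Klf4, 0.0226 to 0.983 for Csrp1, 0.0313 to 0.984 for Myh6, 0.0233 to 0.913 for Chil3 and 0.0159 to 0.983 for Cd68 in ozone, with no change of sign. The smallest log2 differences in size were -0.854 for Klf4 and -0.945 for Chil3, for ozone in HeOuJ. For HeOuJ against HeJ in ozone they were 0.276 and 0.747 for the sets of Csrp1, 0.198 for Myh6 and 1.131 for Cd68. Leaving both HeOuJ ozone arrays out of the fit, chosen after seeing the data, also gave 0 members in the 2 comparisons that do not use them. Precision is limited by 2 arrays a group.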
